A study of Homo sapiens with 18 samples.

Results

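Annexins are proteins that bind negatively charged membrane phospholipids when calcium rises, each through a conserved core of repeats and a variable N-terminal tail. Annexin A2 pairs with S100A10, also called p11, a member of the S100 family of small proteins, and the complex tethers membranes to actin and gathers plasminogen and its activators at the cell surface. Annexin A1 is known in many tissues as a protein whose synthesis or release rises with glucocorticoids, and its secreted form acts on formyl peptide receptors. RNA levels of these genes were read here in H295R cells, an established human adrenocortical carcinoma line that makes steroid hormones. The set held 10 genes of 18417 measured: ANXA1, ANXA2, the ANXA2 pseudogene ANXA2P2, ANXA3, ANXA4, ANXA5, ANXA6, ANXA7, ANXA11 and S100A10. They were taken as the probe sets annotated to those names, and the set was proposed because ANXA2 showed the largest difference between the cell lines of the study. Every gene had 1 probe set of its own, and 1 further probe set was annotated to both SNU13 and ANXA2.

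Both lines were H295R cells carrying a stable, non-inducible pcDNA4 plasmid and grown in medium with Zeocin, insulin-transferrin-selenium supplement and fetal calf serum. GRα cells carried the coding sequence of the glucocorticoid receptor isoform that binds ligand, and control cells carried the empty plasmid. There was 1 line of each kind, so an effect of the receptor and any other difference between the lines cannot be told apart. Whether each was a clone or a pool is not given in the sources used here. After 24 h without serum, cells of each line were given dexamethasone (100 nM), a synthetic glucocorticoid that activates the receptor, RU486 (100 nM), a steroid that occupies the same receptor and mostly blocks it, or ethanol vehicle, for 6 h. The groups were GRα dexamethasone (3 arrays), GRα RU486 (2), GRα vehicle (3), control dexamethasone (3), control RU486 (3) and control vehicle (3), 17 arrays in all, because GRα RU486 replicate A has no values. Values are log2 signals after RMA, and 1 unit is a 2-fold difference in signal. They are compared between samples for 1 probe set at a time, never between genes.

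NR3C1, the receptor gene, lay between 7.90 and 8.11 in the 8 GRα arrays and between 7.23 and 7.46 in the 9 control arrays. Correlations over all genes ran at 0.987 to 0.997 between arrays of 1 line and at 0.971 to 0.977 between arrays of different lines. GRα vehicle replicate B had the lowest array weight (0.19, against up to 2.30). The 14 measured adrenocortical markers had a mean log2 signal of 7.78 to 7.94 per GRα array and 8.18 to 8.32 per control array. Their largest line differences in vehicle were those of HSD3B2 (-1.59), SULT2A1 (-1.09), SCARB1 (-1.01) and STAR (-0.91). CYP11A1 (10.25 in GRα and 10.15 in control vehicle arrays) and CYP17A1 (9.76 and 9.54) were not lower in GRα cells. Marker lists of other cell types stood at 5.67 to 5.89 in GRα arrays and 5.56 to 5.68 in control arrays for fibroblasts, 5.33 to 5.46 and 5.25 to 5.41 for endothelium, 4.97 to 5.13 and 4.92 to 5.09 for leukocytes, 6.18 to 6.28 and 6.04 to 6.15 for epithelium, and 5.88 to 6.16 and 5.52 to 5.61 for chromaffin cells. In vehicle, 0 of 14 adrenocortical markers were higher and 7 lower in GRα cells without overlap, and the counts were 5 higher of 10 for fibroblasts, 3 of 10 for endothelium, 3 of 11 for leukocytes, 2 of 9 for epithelium and 3 of 9 for chromaffin cells, with 0 lower, where 18.8% of all genes were so higher and 21.7% so lower. In dexamethasone the counts higher and lower were 1 and 7 for adrenocortical markers, 3 and 0 for fibroblasts and 3 and 0 for epithelium. They were 0 and 0 for endothelium, 1 and 3 for leukocytes and 3 and 2 for chromaffin cells, beside 21.1% and 24.5% of all genes. In RU486 they were 1 and 7 for adrenocortical markers, 4 and 0 for fibroblasts and 3 and 2 for epithelium. For endothelium they were 1 and 1, for leukocytes 2 and 1 and for chromaffin cells 2 and 2, beside 24.9% and 29.9%. Under all 3 treatments the adrenocortical list thus had 7 lower and at most 1 higher, and the fibroblast list had 0 lower. Each of the other lists had 0 lower in vehicle and some lower under at least 1 ligand. Among chromaffin markers the secretory granule gene CHGB stood at 9.12 in GRα vehicle arrays and 6.16 in control vehicle arrays (a difference of 2.95). CHGA was also higher without overlap, at 6.00 and 5.46 (a difference of 0.54 ± 0.12 SE). PNMT, the other one without overlap, differed by 0.15, and its lowest GRα and highest control vehicle values were both 5.78 after rounding. TH and DDC differed by 0.13 and 0.11, with overlap. RNA came from whole cultures, so fewer cells of a type and less RNA per cell cannot be told apart. Detection above background was not tested, nor was the part of these markers in the differences between the lines.

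The promoters of the 3 protein-coding genes with the largest differences between the lines are shown first. Each is 300 bases from RefSeq (GRCh38.p14), 250 before and 50 after the annotated start, written 5′ to 3′ on the gene's strand. Capitals mark matches, on either strand, to the TATA box sequence TATAAA and to the site of the AP-1 factors, TGACTCA, which reads TGAGTCA on the opposite strand.
ANXA2, chr15:60397937-60398236, minus strand: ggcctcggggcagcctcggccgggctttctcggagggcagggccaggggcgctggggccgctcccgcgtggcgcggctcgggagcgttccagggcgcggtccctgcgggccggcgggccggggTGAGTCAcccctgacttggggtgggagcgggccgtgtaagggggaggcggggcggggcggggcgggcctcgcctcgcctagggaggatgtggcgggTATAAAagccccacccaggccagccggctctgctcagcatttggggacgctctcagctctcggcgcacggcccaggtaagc
ANXA1, chr9:73151615-73151914, plus strand: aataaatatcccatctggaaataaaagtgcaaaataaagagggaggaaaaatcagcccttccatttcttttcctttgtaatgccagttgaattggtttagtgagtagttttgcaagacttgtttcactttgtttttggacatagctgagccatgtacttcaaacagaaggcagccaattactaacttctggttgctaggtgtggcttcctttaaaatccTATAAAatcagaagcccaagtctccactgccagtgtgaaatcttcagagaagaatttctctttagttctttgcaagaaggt
S100A10, chr1:151993810-151994109, minus strand: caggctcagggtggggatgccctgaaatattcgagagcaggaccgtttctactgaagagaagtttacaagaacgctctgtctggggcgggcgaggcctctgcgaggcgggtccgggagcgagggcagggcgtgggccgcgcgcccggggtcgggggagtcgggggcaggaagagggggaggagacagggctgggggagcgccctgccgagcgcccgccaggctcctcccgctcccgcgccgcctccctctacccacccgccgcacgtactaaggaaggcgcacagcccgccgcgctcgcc

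The ANXA2 window held 1 AP-1 match, starting at base 124, and 1 TATAAA, starting at base 220. The ANXA1 window held 1 TATAAA, also starting at base 220, and the S100A10 window held neither motif. Over all 35116 promoter windows of the table, 4.95% had the AP-1 heptamer and 11.5% had TATAAA or TTTATA. The windows differed in base composition, with 0 CG dinucleotides in ANXA1, 32 in ANXA2 and 32 in S100A10 against a median of 14 over all windows. The consensus element of the receptor, AGAACA and TGTTCT with 3 bases between, reads the same on both strands and was in none of the 13 windows of the 9 annotated members and in 1 window of the whole table. The arms alone were in none of the 3 windows shown, against 14.8% of all windows. Among the other annotated members only ANXA11 had an arm, in its windows 1 and 3, starting at bases 19 and 254. No match says only that these letters are not in the window.

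Between the lines, 4 of the 10 genes stood far apart under every treatment: ANXA2, its pseudogene ANXA2P2, ANXA1 and S100A10, all higher in GRα cells. ANXA6 was higher by a smaller margin, and the line differences of ANXA3, ANXA4, ANXA5, ANXA7 and ANXA11 lay between -0.28 and 0.17 log2 under the 3 treatments. Counted over all arrays, 5 of 10 members had all 8 GRα values above all 9 control values and 0 had them below, where 10% of all genes were so higher and 12.4% so lower. These differences served to choose the set, so they are given as descriptions with no test.

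**Figure D1:**
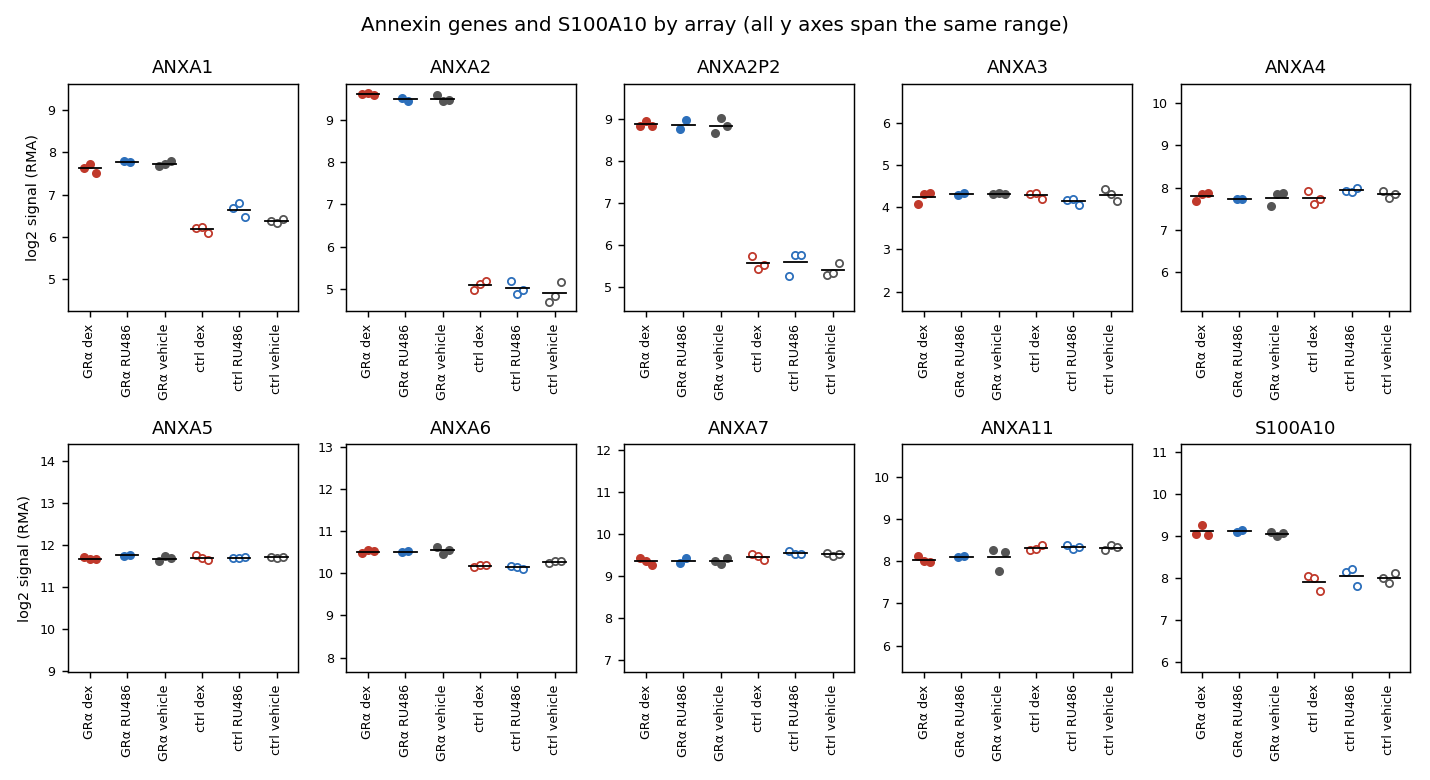
Log2 signal (y axis, RMA) of each gene in each of the 17 arrays, grouped on the x axis as GRα cells (filled) and control cells (open) with dexamethasone (red), RU486 (blue) or vehicle (grey), with lines at the group means. The 8 GRα arrays lie above the 9 control arrays for ANXA1, ANXA2, ANXA2P2, ANXA6 and S100A10, while the other panels overlap.

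ANXA2 encodes annexin A2, which links membranes to the cortical actin network. Its log2 signal in GRα cells was 9.62, 9.65 and 9.59 with dexamethasone, 9.54 and 9.45 with RU486 and 9.61, 9.45 and 9.48 with vehicle. In control cells it was 4.96, 5.11 and 5.19 with dexamethasone, 5.18, 4.87 and 4.96 with RU486 and 4.69, 4.82 and 5.16 with vehicle. All GRα arrays lay within 0.20 of each other and all control arrays within 0.50, with a gap of more than 4 units between the lines. The line difference was 4.54 ± 0.10 (SE of the fit) with dexamethasone, 4.49 ± 0.12 with RU486 and 4.63 ± 0.10 with vehicle, or 23.2-fold, 22.5-fold and 24.7-fold. It was the largest absolute difference of the 18417 genes under each of the 3 treatments. Whether the control signals of ANXA2 were above background was not tested.

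ANXA2P2 is a transcribed processed pseudogene of ANXA2 on chromosome 9, close to it in sequence, and how far its probes also read ANXA2 RNA was not tested. It stood at 8.84, 8.95 and 8.84 with dexamethasone, 8.76 and 8.97 with RU486 and 8.67, 9.02 and 8.84 with vehicle in GRα cells, against 5.75, 5.43 and 5.53, 5.26, 5.78 and 5.78, and 5.30, 5.35 and 5.58 with the same treatments in control cells. The lines did not overlap, and the difference was 3.31 ± 0.13, 3.26 ± 0.15 and 3.44 ± 0.13 (SE) with dexamethasone, RU486 and vehicle. A second ANXA2 pseudogene, ANXA2P1, lay between 6.50 and 7.10 (vehicle replicate B) in the 8 GRα arrays and between 4.73 and 5.40 in the 9 control arrays. The third, ANXA2P3, overlapped between the lines (5.26 to 5.91 in GRα arrays, 5.08 to 5.64 in control arrays). The differences in vehicle thus ran 4.63 for ANXA2, 3.44 for ANXA2P2, 1.79 for ANXA2P1 and 0.25 for ANXA2P3.

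The probe set annotated to both SNU13, a small nucleolar ribonucleoprotein gene, and ANXA2 did not follow the ANXA2 probe set. It ran from 8.65 to 8.81 in GRα arrays and from 8.56 to 8.98 in control arrays, with a line difference in vehicle of -0.19.

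**Figure D2:**
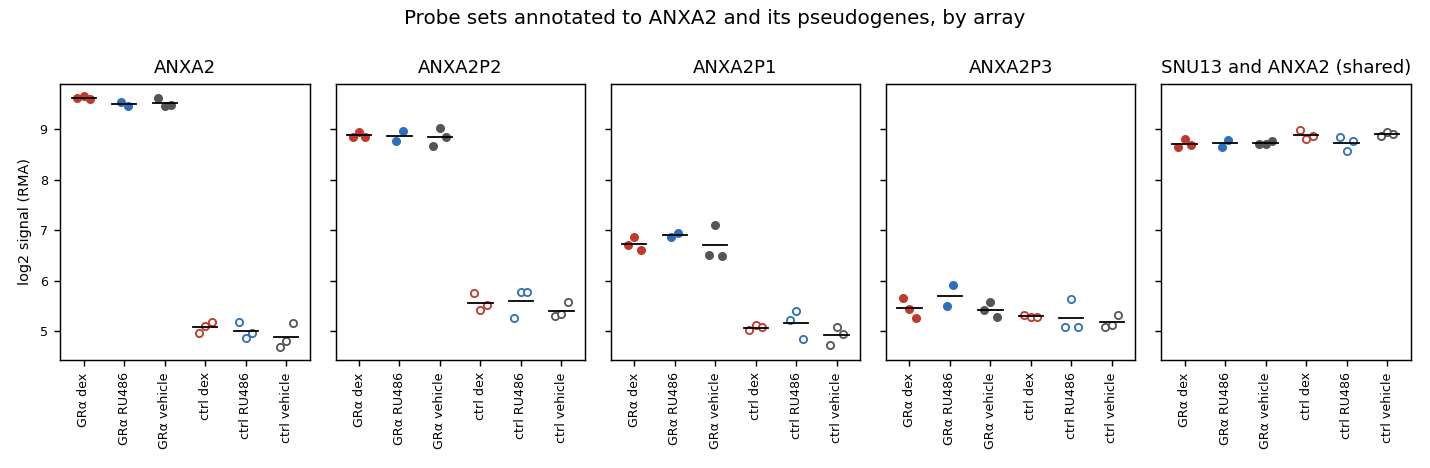
Log2 signal (y axis, RMA) per array of the probe sets of ANXA2, its pseudogenes ANXA2P2, ANXA2P1 and ANXA2P3, and the probe set shared by SNU13 and ANXA2, with groups and colours on the x axis as GRα cells (filled) and control cells (open) in dexamethasone (red), RU486 (blue) and vehicle (grey) and lines at the means. The gap between GRα and control arrays narrows from ANXA2 (4.63 in vehicle) to ANXA2P3 (0.25), and the shared probe set overlaps.

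S100A10 encodes the small S100 protein that forms a tetramer with annexin A2. Its log2 signal in GRα cells was 9.04, 9.26 and 9.03 with dexamethasone, 9.10 and 9.15 with RU486 and 9.10, 8.99 and 9.07 with vehicle. In control cells it was 8.05, 7.99 and 7.69, 8.14, 8.21 and 7.80, and 7.99, 7.87 and 8.12 with dexamethasone, RU486 and vehicle. The lowest GRα array (8.99, vehicle replicate B) was above the highest control array (8.21). The difference was 1.20 ± 0.11, 1.07 ± 0.12 and 1.06 ± 0.11 (SE) in the same order of treatments, so S100A10 differed in the same direction as ANXA2 and by a smaller amount, 2.08-fold in vehicle.

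ANXA1, whose product annexin A1 binds formyl peptide receptors and was first described as an inhibitor of phospholipase A2, lay between 7.50 and 7.79 in GRα arrays and between 6.08 and 6.79 in control arrays. The line difference was 1.45 ± 0.08 with dexamethasone, 1.14 ± 0.09 with RU486 and 1.35 ± 0.08 (SE) with vehicle, 2.56-fold in vehicle. Its 9 control arrays spread over 0.71 log2 and its 8 GRα arrays over 0.29.

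ANXA6 encodes the annexin with a doubled core, which acts in endosome traffic and in Ras signalling. It lay between 10.45 (vehicle replicate B) and 10.63 in GRα arrays and between 10.10 and 10.29 in control arrays. The difference was 0.33 ± 0.06 with dexamethasone, 0.37 ± 0.06 with RU486 and 0.27 ± 0.06 (SE) with vehicle, and the lines did not overlap.

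ANXA7, a gene of an annexin with a long N-terminal tail that promotes membrane fusion, ran from 9.27 to 9.43 in GRα arrays and from 9.39 to 9.59 in control arrays. ANXA11, whose product travels with RNA granules on lysosomes, ran from 7.78 to 8.28 in GRα arrays and from 8.27 to 8.38 in control arrays. The line difference in vehicle was -0.16 ± 0.07 (SE) for ANXA7 and -0.23 ± 0.10 for ANXA11. ANXA7 was lower without overlap in vehicle and in RU486, and ANXA11 in dexamethasone and in RU486. Of all genes, 21.1% were higher and 24.5% lower without overlap in dexamethasone, and 24.9% and 29.9% in RU486. Over all 17 arrays the lines overlapped for both genes, through a single array each. Without GRα vehicle replicate A (8.28) every GRα array was below every control array for ANXA11, and without control dexamethasone replicate C (9.39) the same held for ANXA7. The lowest ANXA11 value, 7.78, was that of GRα vehicle replicate B.

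ANXA3, ANXA4 and ANXA5 overlapped between the lines in vehicle, in dexamethasone and over all 17 arrays. In RU486, with 2 GRα arrays, they did not overlap, with differences of 0.17 for ANXA3, -0.20 for ANXA4 and 0.06 for ANXA5. ANXA5, whose protein is the common probe for phosphatidylserine on dying cells, lay at 11.61 to 11.76 in GRα arrays and 11.64 to 11.75 in control arrays. ANXA4, an annexin abundant in epithelia, ran from 7.56 to 7.88 in GRα arrays and from 7.62 to 7.98 in control arrays. ANXA3, an annexin abundant in neutrophils, ran from 4.09 to 4.34 in GRα arrays and from 4.05 to 4.43 in control arrays.

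**Figure D3:**
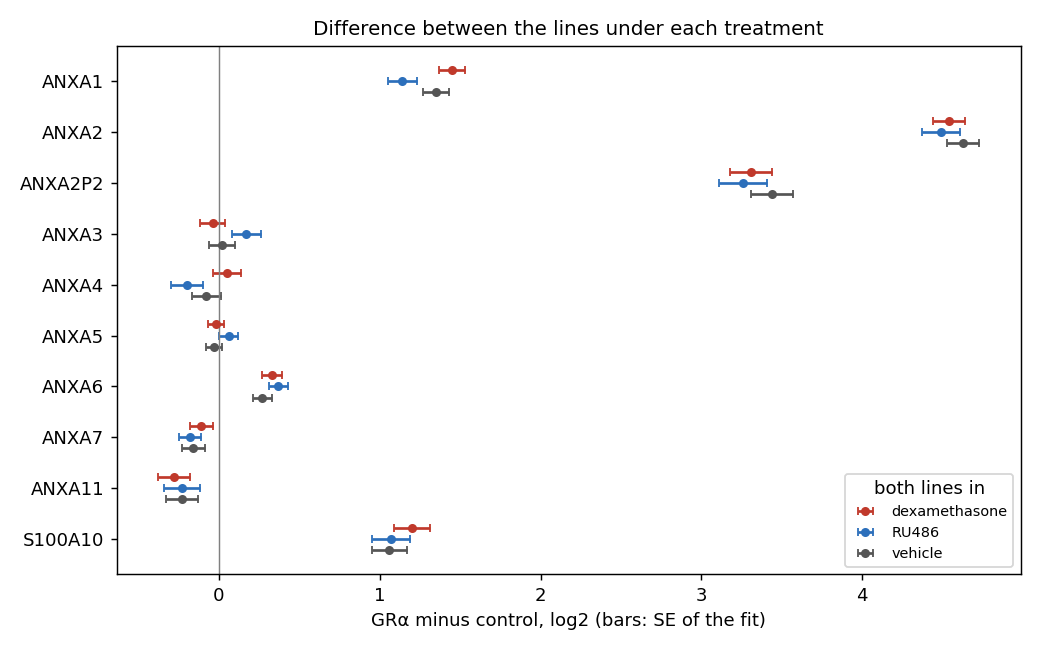
GRα minus control log2 difference (x axis) of each gene (y axis) with both lines in dexamethasone (red), RU486 (blue) or vehicle (grey), with bars for the standard error of the fit. ANXA2 lies near 4.5, ANXA2P2 near 3.3, ANXA1 and S100A10 between 1.06 and 1.45 and ANXA6 between 0.27 and 0.37, with the treatments close together for each gene.

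Genes with a pattern like ANXA1, ANXA2 or S100A10 over the 6 group means were ranked by the root mean square difference after centring each gene. The group means of these members differ mainly between the lines, the difference that served to choose the set. The ranking therefore mostly picks genes with a line difference of similar size. In vehicle that difference was 4.11 for GAP43 and 2.92 for ADGRG2. It ran from 1.03 to 1.14 for the genes closest to S100A10 and from 1.30 to 1.40 for those closest to ANXA1. For ANXA2 the closest were GAP43 (0.246 log2), NELL2 (0.398), ANXA2P2 (0.611), PRAME (0.669) and ADGRG2 (0.765). For S100A10 they were ZNF280B (0.030), MCM8 (0.032), HDGFL3 (0.035), ETFA (0.036) and HERC1 (0.037). For ANXA1 they were PEAK1 (0.072), SORBS2 (0.094), FBN2 (0.095), CXADR (0.097) and KCNK2 (0.106). HDGFL3, ETFA and HERC1, listed for S100A10, and PEAK1, listed for ANXA1, lie on chromosome 15, as ANXA2 does. The genes closest to ANXA2 itself lie on chromosomes 3, 12, 9, 22 and X.

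The genes around ANXA2 on chromosome 15 also differed between the lines. Of the 10 nearest measured genes on each side, 15 of 20 had all GRα vehicle values above all control vehicle values and 0 had them below, where 18.8% and 21.7% of all genes were so in this comparison. Their differences ran from -0.06 to 1.56 with a median of 0.77, so none came near the 4.63 of ANXA2 itself. The unconventional myosin gene MYO1E (1.56 ± 0.07 SE), FAM81A (1.49 ± 0.09), the general transcription factor gene GTF2A2 (1.13 ± 0.09), the tropomyosin gene TPM1 (1.12 ± 0.10) and ICE2 (1.07 ± 0.08) were at least 1 log2 higher, while FOXB1, the closest on one side, was not apart (-0.01 ± 0.10). Over the 576 measured genes of chromosome 15 the median difference was 0.27, with 82.6% of genes positive, against a median of 0.01 and 51.7% over all genes. Around ANXA2P2 on chromosome 9 the median of the 20 neighbours was 0.52, with 16 of 20 higher without overlap. Around ANXA1, elsewhere on chromosome 9, it was 0.13 with 10 higher and 5 lower, and around S100A10 on chromosome 1 it was 0.05 with 1 higher and 2 lower. The neighbours of the remaining 6 members had medians between -0.04 and 0.10. The part of the region in the differences of the members was not tested.

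**Figure D4:**
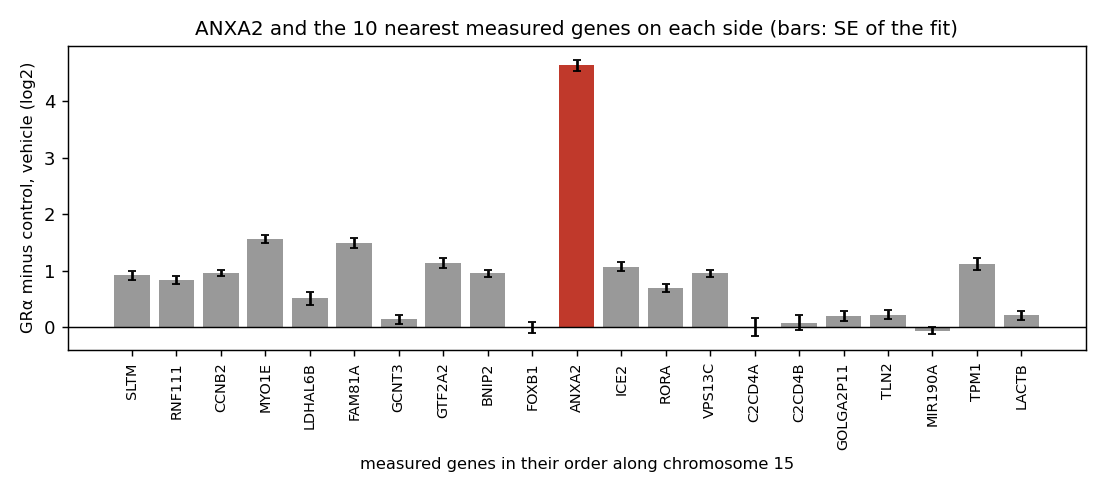
GRα minus control log2 difference in vehicle (y axis) of ANXA2 (red) and the 10 nearest measured genes on each side (grey) in their order along chromosome 15 (x axis), with bars for the standard error of the fit. The neighbours reach 1.56 at MYO1E, and ANXA2 stands at 4.63.

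The response to ligands was then tested. The rule that chose the set, the difference between the lines, does not use this measure. Earlier results of these data were known, however, among them the ANXA1 call given below. In GRα cells neither dexamethasone nor RU486 gave a call for any member against vehicle, and in control cells none did either. Of the 10 members, limma called 0 with dexamethasone in GRα cells (2.02% of all genes were called), 0 with dexamethasone in control cells (0.261%), 0 with RU486 in GRα cells (0%) and 0 with RU486 in control cells (0%). At an unadjusted p under 0.05 these counts were 0, 1, 0 and 2 of 10, where 15.3%, 4.91%, 8.54% and 3.37% of all genes passed. The largest estimated change of a member in GRα cells was -0.11 ± 0.08 (SE) with dexamethasone, for ANXA1 (limma adjusted p = 0.561), and 0.08 with RU486, for ANXA5 (± 0.06 SE, adjusted p = 0.74) and S100A10 (± 0.12 SE, adjusted p = 0.876). Over the 10 members the 95% intervals reached from -0.28 to 0.32 for dexamethasone and from -0.29 to 0.34 for RU486 in GRα cells. In control cells they reached from -0.37 to 0.44 and from -0.33 to 0.47. The medians of the 10 changes lay between -0.03 and 0.04 log2 in these 4 comparisons, against -0.013 to 0.001 over all genes.

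The ANXA2 gap between the lines was not called as altered by either ligand. The ANXA2 control group means were 4.89 to 5.08. Whether these were above background was not tested, so a ligand change at that level may not be readable. The change with dexamethasone was 0.10 ± 0.10 (SE) in GRα cells and 0.19 ± 0.10 in control cells, and the test of the difference between the lines gave -0.09 ± 0.15 (95% interval -0.40 to 0.22, limma adjusted p = 0.908). For RU486 that difference was -0.13 ± 0.16 (-0.46 to 0.19, adjusted p = 0.999). No member was called in either test of a difference between the lines, by limma, with 0 of 10 at an unadjusted p under 0.05 in both. Over all genes 0.0652% were called for dexamethasone and 0% for RU486, and 7.39% and 4.05% had an unadjusted p under 0.05.

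ANXA1 was the member with the widest spread of levels among the control cells. There it stood at 6.20, 6.23 and 6.08 with dexamethasone, 6.67, 6.79 and 6.46 with RU486 and 6.37, 6.32 and 6.42 with vehicle. RU486 arrays were highest and dexamethasone arrays lowest, with vehicle arrays between them and no overlap. With dexamethasone ANXA1 fell by 0.47 ± 0.08 (SE) relative to RU486 (95% interval -0.64 to -0.30, limma adjusted p = 0.0102), and 1 of the 10 members, ANXA1, was called in this comparison, where 0.364% of all genes were called and 0.076% were called lower. At an unadjusted p under 0.05 it was also 1 of 10, and 5.98% of all genes. Neither ligand passed the test against vehicle, dexamethasone at -0.20 ± 0.08 (unadjusted p = 0.0251, limma adjusted p = 0.892) and RU486 at 0.27 ± 0.08 (unadjusted p = 0.00382, adjusted p = 0.999). Of all genes, 7.7% lay without overlap below vehicle with dexamethasone, 5.21% above vehicle with RU486 and 7.95% below RU486 with dexamethasone. The 3 comparisons share arrays and are not independent, and the call was known from earlier results of these data when the genes were chosen. The call rests on few arrays: without control RU486 replicate B the difference was -0.39 (adjusted p = 0.102), without control RU486 replicate A -0.45 (0.0773) and without control dexamethasone replicate C -0.42 (0.0915), and with only these groups fitted the limma adjusted p was 0.067.

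In GRα cells ANXA1 stood at 7.64, 7.72 and 7.50 with dexamethasone, 7.79 and 7.77 with RU486 and 7.67, 7.72 and 7.79 with vehicle. All 3 dexamethasone arrays were below both RU486 arrays, as were those of 14.1% of all genes. The difference was -0.16 ± 0.09 (SE, 95% interval -0.35 to 0.03) and was not called (limma adjusted p = 0.657). In this comparison limma called 0 of 10 members against 0.896% of all genes, and 0 of 10 against 8.85% had an unadjusted p under 0.05. The difference between the lines in this contrast, tested after the values were seen, was 0.30 ± 0.12 (0.05 to 0.56, limma adjusted p = 1, with 0.0271% of all genes called), so a different response of ANXA1 in the lines was not shown.

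Between dexamethasone and RU486 the other members had differences of -0.07 to 0.12 log2 in GRα cells and -0.18 to 0.14 in control cells, none called. In GRα cells ANXA1 was not alone in lacking overlap. The dexamethasone arrays of ANXA5 (-0.07) were also all below its RU486 arrays, as for 14.1% of all genes, and those of ANXA2 (0.12) were all above. ANXA6 in control cells, at 10.15, 10.19 and 10.21 with dexamethasone, 10.18, 10.15 and 10.10 with RU486 and 10.25, 10.29 and 10.29 with vehicle, had a difference from vehicle of -0.09 ± 0.06 (SE) with dexamethasone and -0.13 ± 0.06 with RU486, with limma adjusted p-values of 1 and 0.999. Its arrays did not overlap with vehicle under either ligand, as was so for 7.02% of all genes below vehicle with RU486.

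**Figure D5:**
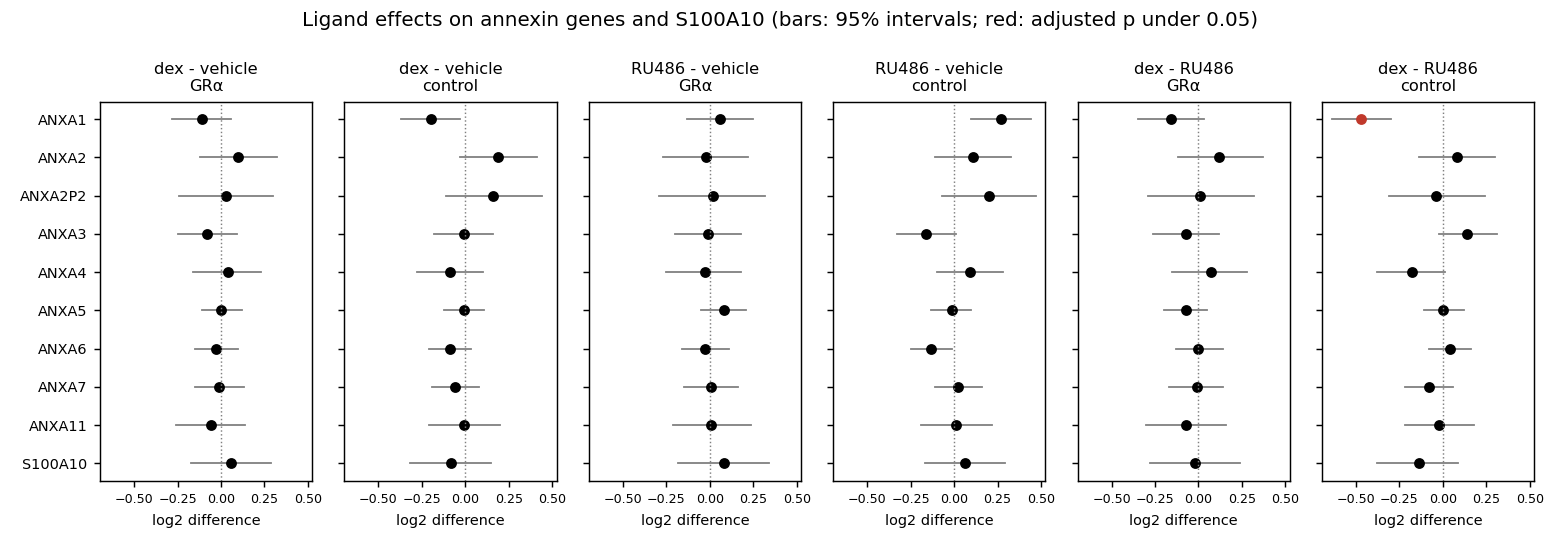
Log2 difference (x axis) of each gene (y axis) for dexamethasone minus vehicle, RU486 minus vehicle and dexamethasone minus RU486 in GRα and control cells, with bars for 95% intervals. The 1 red point, ANXA1 with dexamethasone against RU486 in control cells at -0.47, passed the adjusted threshold.

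Other genes of the same biology were read from 7 lists (96 of 105 listed genes measured): the remaining annexins, the remaining S100 genes, plasminogen activation, partners of annexin A2 and S100A10, annexin A1 receptors with phospholipase A2 enzymes, partners of annexins A6, A7 and A11, and membrane repair. Between the lines in vehicle, 18 of the 96 were higher in every GRα array (18.8%) and 16 lower (16.7%), beside 18.8% and 21.7% of all genes. The lists as a whole were near the background. Of the 6 further annexin genes measured, 2 were higher without overlap, ANXA2P1 among them, and 0 were lower.

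Among partners of annexin A2 and S100A10, 4 of 19 were higher without overlap and 5 lower in GRα vehicle arrays, with a median of 0.06 against 0.01 for all genes. AHNAK, the giant scaffold protein that binds the annexin A2 and S100A10 complex at the membrane, lay between 7.07 and 7.57 in GRα arrays and between 6.06 and 6.25 in control arrays, its lowest GRα value being that of vehicle replicate B. In vehicle the line difference was -0.95 ± 0.07 (SE) for NAMPT, -0.61 ± 0.07 for HLTF, a chromatin remodeller that binds the complex, and 0.55 ± 0.15 for the caveolin gene CAV1. The CAV1 means in GRα and control cells were 4.66 and 4.61 with dexamethasone, where the arrays overlapped, and 5.00 and 4.49 with RU486. In the S100 list, 1 of 18 genes was higher without overlap and 0 lower. It was S100A6, which encodes the calcium-binding protein calcyclin and has annexins among its partners, at 7.61 to 7.84 (vehicle replicate B) in GRα arrays and 6.97 to 7.27 in control arrays.

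In plasminogen activation 3 of 14 genes were higher without overlap and 4 lower in GRα vehicle arrays. The protease inhibitor gene TFPI2 lay between 5.83 (vehicle replicate B) and 6.27 in GRα arrays and between 6.66 and 7.24 in control arrays, the related TFPI was higher in GRα vehicle arrays by 0.56 ± 0.11 (SE), and PLGRKT, a plasminogen receptor gene, differed by -0.42 ± 0.09. In the list with annexin A1 receptors and phospholipase A2 enzymes 4 of 16 were higher and 2 lower. The cyclooxygenase gene PTGS1 lay between 6.35 and 6.55 in GRα arrays and between 5.09 and 5.43 in control arrays, and the secreted phospholipase gene PLA2G2A was higher in GRα vehicle arrays by 0.45 ± 0.09. The PLA2G2A means in GRα and control cells were 5.60 and 5.53 with dexamethasone, where the arrays overlapped, and 5.67 and 5.49 with RU486. EGFR, of the same list, differed in vehicle by -0.40 ± 0.07 (SE). Of 16 membrane repair genes, 3 were higher and 4 lower, among the lower ones CAPNS1 (-0.44 ± 0.07 SE). MYOF, which encodes the dysferlin relative myoferlin, lay between 5.84 (vehicle replicate B) and 6.30 in GRα arrays and between 4.86 and 5.09 in control arrays, and EHD2, a membrane-shaping ATPase of caveolae, differed in vehicle by 0.88 ± 0.08 (SE). CAVIN1, also in the membrane repair list, differed in vehicle by 0.59 ± 0.10 (SE). Of 7 measured partners of annexins A6, A7 and A11, 1 was higher and 1 lower, and the lysosomal membrane gene LAMP1 differed by -0.34 ± 0.06 (SE).

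In the 8 tests of ligand effects, limma called 2 of the 96 genes, both for dexamethasone in GRα cells, a share of 2.08% beside 2.02% of all genes in that comparison. ANXA2R, named for a proposed annexin A2 receptor, was at 6.12, 6.33 and 6.35 with dexamethasone and at 6.00, 5.79 and 6.02 with vehicle in GRα cells, a rise of 0.34 ± 0.08 SE (adjusted p = 0.0439). With 1 array left out at a time the call was kept in 4 of 17 fits, and the adjusted p reached 0.175. TRIM72, which encodes the muscle membrane repair protein MG53, was at 6.13, 5.88 and 5.85 with dexamethasone and at 6.43, 6.81 and 6.20 with vehicle, and fell by 0.53 ± 0.12 SE (adjusted p = 0.0289). Its highest vehicle value was that of replicate B. The call was lost without GRα vehicle replicate B (-0.36, limma adjusted p = 0.111) or A (-0.55, 0.0599) and without GRα dexamethasone replicate B (-0.49, 0.124) or C (-0.48, 0.112). For ANXA2R the value without GRα vehicle replicate B was 0.26 (adjusted p = 0.162). No gene of the S100, plasminogen, annexin A2 partner, annexin A1 receptor or annexin A6, A7 and A11 partner lists was called by limma in any of the 8 tests. Among the cell type markers limma called NR5A1 with dexamethasone in GRα cells (0.66 ± 0.08 SE, adjusted p = 9.33e-05) and with dexamethasone against RU486 in both lines. It also called FDX1 with dexamethasone in control cells (0.38, adjusted p = 0.0208) and PNMT with dexamethasone in GRα cells (-0.40, adjusted p = 0.0022).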

How the data were processed

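Gene expression was measured on whole-transcript arrays in 17 samples of 6 groups, 2 or 3 arrays each, and the number of arrays limits the precision. The authors deposited log2 values for 29153 probe sets. RMA and limma are named per the submitters' processing notes, without version or settings, and no genome build is given in the labels. RMA aligns the distributions of the arrays, so a change common to most transcripts would not be seen. The values ran from 2.07 to 14.15. The array of GRα RU486 replicate A has an empty column and, per the labels, failed quality control. The labels do not say whether replicates were separate cultures, so the p-values rest on variation among these samples that could be technical.

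Probe sets were named with the platform annotation, updated by Entrez number through RefSeq (19429 of 19460 with 1 symbol matched). The probe set with the highest mean stood for a gene, giving 18417 genes. Comparisons were contrasts in 1 limma fit (version 3.58.1, R 4.3.3) with a mean per group over all 17 arrays, two-sided, with Benjamini-Hochberg adjustment over all genes of a comparison, and genes were called at an adjusted p under 0.05. No overlap means that every array of 1 group lies above every array of the other. The fit was tested on data simulated with independent normal noise, for dexamethasone in GRα cells only, with 200 of 18417 genes changed. It recovered 78% of changes of 0.5 log2 and 99% of changes of 1 log2, and 12 of its 189 calls were false.

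The genes, lists, motifs and tests were chosen with earlier results of these data known. All members are named. From the other lists come genes called in a test and up to 4 per list with the largest absolute line difference in vehicle. The genes most like ANXA1, ANXA2 and S100A10 are the closest 5 of each. The neighbours of members other than ANXA2, the motif search and the test of dexamethasone against RU486 between the lines were added after seeing the data. Alternatives were trend and robust moderation, array weights, a repeated quantile step, centring by the median, dropping the 25% of genes with the lowest signal, every probe set as its own row, a fit of only the groups compared, a block for the replicate letter, and each array left out in turn.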

Additional observations from a re-analysis of the deposited data

How the results depend on the processing

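The results were recomputed under 8 other settings and without each of the 17 arrays. The counts of called members stayed at 0 in all of them for the 5 comparisons of a ligand with vehicle or of dexamethasone with RU486 in GRα cells and for both differences between the lines in a ligand effect. For dexamethasone against RU486 in control cells the count was 1 in 7 settings and 0 with only the groups compared fitted, where fewer arrays set the spread, and it ranged from 0 to 1 without single arrays. The ANXA1 difference there ran from -0.56 to -0.39 without single arrays and from -0.47 to -0.44 under the other settings. The ANXA2 difference between the lines in vehicle ran from 4.53 to 4.76 without single arrays and from 4.56 to 4.64 otherwise. The count of members higher in every GRα array was 5 throughout, and that of members lower was 0, or 1 without GRα vehicle replicate A (ANXA11) or control dexamethasone replicate C (ANXA7).

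The replicate letter as a block kept ANXA1 called (-0.47, adjusted p = 0.0162) and the number of called members at 1 there, and did not keep ANXA2R (0.34, adjusted p = 0.0645). The letters did not pair the samples: deviations of arrays with the same letter correlated at -0.25 to 0.32, with 5 of 40 pairs over 0.1. ANXA2R was also lost with trend and robust moderation, array weights, every probe set as its own row and only the groups compared (adjusted p = 0.0578, 0.204, 0.0635 and 0.315), and TRIM72 with array weights and only the groups compared (0.111 and 0.29). Counts over all genes, on which the background shares rest, moved more. Without single arrays they ran from 200 to 601 around 372 for dexamethasone in GRα cells, 17 to 82 around 48 in control cells, 67 to 259 around 165 and 29 to 113 around 67 for dexamethasone against RU486 in GRα and in control cells, 6 to 15 around 12 for the difference between the lines with dexamethasone, and 0 to 1 around 0 for RU486 in GRα cells. In other settings they moved too: with only the groups compared, dexamethasone gave 77 calls in GRα cells against 372, 23 in control cells against 48, 54 against RU486 in GRα cells against 165 and 5 for the difference between the lines against 12. Array weights gave 148 for dexamethasone in control cells, 214 against 67 for dexamethasone against RU486 in control cells and 22 for the difference between the lines. Trend and robust moderation gave 74, 107 and 19 for the same comparisons, and every probe set as its own row gave 27 for dexamethasone in control cells. The cause was not tested. The files give no background signal, so whether low signals, such as ANXA3 or ANXA2 in control cells, were above background was not tested.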
